A study of Mus musculus with 48 samples.

Results

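Neuroligins and neurexins are cell-surface proteins that bind each other across the gap between cells. The genes described here are Nlgn1, Nlgn2 and Nlgn3, which encode neuroligins, and Nrxn2 and Nrxn3, which encode neurexins. They were taken by symbol and are 5 of the 24421 gene symbols in each of 6 expression tables. The libraries are bulk RNA-seq of mouse astrocytes, glial cells whose fine branches contact synapses. Developmental libraries came from cortex, hippocampus and olfactory bulb of pups 1, 7 or 14 days old, called P1, P7 and P14 for the postnatal day. Each of these groups held 3 libraries, except cortex P14 with 4, and their labels name no genotype or treatment. A second set came from P28 animals labelled Gabbr1 control or Gabbr1 cKO. Gabbr1 codes for 1 of the proteins of the GABA-B receptor, by which cells sense the inhibitory transmitter GABA, and cKO stands for conditional knockout, the loss of a gene in chosen cells. There were 4 control and 4 cKO libraries from cortex, 2 and 4 from hippocampus, and 3 and 3 from olfactory bulb. Tamoxifen is named as the treatment of every P28 hippocampus and olfactory bulb library, controls included, and of 3 of the 8 cortex libraries. The labels do not name the Cre driver, the way astrocytes were separated, the strain or any pooling of animals, so it is not known which cells the cKO was meant to reach.

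At synapses, the contacts between neurons, neuroligins sit on the receiving cell and neurexins on the sending cell. Nlgn1 protein is found mainly at excitatory synapses and Nlgn2 protein at inhibitory ones, and Nlgn3 protein occurs at both. Astrocytes also make neuroligins, and in the cortex these are known to bind neurexins of neurons and to shape how astrocytes branch. The tail inside the cell of both families ends in a short motif that docks on PDZ scaffold proteins. Neurexin genes use separate promoters for long alpha and short beta forms, which gene-level values add together.

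The last 33 coding bases of 1 transcript of each gene show what the 2 families share and where they differ. They were read from GENCODE release M21 on GRCm38 (mm10), 5′ to 3′ on the coding strand. For each gene the transcript with the longest coding sequence was taken. Each neuroligin has 1 annotated stop, while Nrxn2 and Nrxn3 have 2 each, and their other ends are not shown. Capitals mark the last 4 codons before the stop, which encode the end that docks on PDZ proteins.
Nlgn1: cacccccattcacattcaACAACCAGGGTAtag
Nlgn2: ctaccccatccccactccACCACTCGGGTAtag
Nlgn3: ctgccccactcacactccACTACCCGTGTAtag
Nrxn2: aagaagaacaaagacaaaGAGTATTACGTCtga
Nrxn3: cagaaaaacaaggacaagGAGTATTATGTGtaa
Any pair of the 3 neuroligins shared 9 of these 12 capital bases, and Nrxn2 and Nrxn3 shared 10. A neuroligin and a neurexin shared 2 or 3. Within each family these codons encode the same amino acids, so the differing bases do not alter this end of the protein. The genes lie apart in the genome (GRCm38): Nlgn1 on chromosome 3 at 25426215 to 26332460, Nlgn2 on chromosome 11 at 69823122 to 69837784, Nlgn3 on chromosome X at 101299168 to 101325963, Nrxn2 on chromosome 19 at 6418731 to 6544169, and Nrxn3 on chromosome 12 at 88722876 to 90334935. Nlgn1 and Nlgn2 lie on the minus strand and the others on the plus strand.

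Values are read counts per gene divided by 1 size factor per library, called normalized read counts below. Regions were scaled in separate tables, so tests were made within a table only, and levels set side by side across regions were not tested. Libraries held 1773226 to 15008466 reads in genes, and every developmental library held at least 40 reads of each of the 5 genes. In 46 of the 48 libraries the ribosomal RNA gene Rn45s took 13.7% to 38.0% of these reads. The exceptions were replicate 2 of the hippocampus P28 cKO group, with 0.594%, and replicate 2 of the olfactory bulb P28 controls, with 0.476%. Some P28 differences are therefore also given without these libraries. None of the 10 astrocyte markers was at 0 throughout any group, and neuron markers were detected in every group, most at P1. In olfactory bulb at P1 the sum of 12 neuron markers (15194 to 18587) was above that of the 10 astrocyte markers (5048 to 7168). At P7 these sums overlapped there, at 9678 to 15046 and 10607 to 19325. Gabbr1 itself was lower in every cKO library than in every control library: 89.8 to 211 against 927 to 1930.1 (cortex), 152 to 379.9 against 779.8 to 824 (hippocampus) and 63.6 to 99.5 against 184 to 318 (olfactory bulb). The log2 differences were -3.45 ± 0.29, -1.84 ± 0.39 and -1.48 ± 0.33 (SE), of which the first passed the test over all genes (limma adjusted p = 4.4e-05) and the others did not (0.94 and 0.88).

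Over the first 2 postnatal weeks, Nlgn2 fell and Nlgn3 rose in all 3 regions. Nrxn3 fell in cortex and olfactory bulb, and Nrxn2 rose in cortex and hippocampus. Nlgn1 fell in cortex, although not under every scaling, and rose in olfactory bulb. Nothing in the labels says that the libraries of a group came from separate animals, so p-values measure the spread between these libraries, which may be technical. A gene is called changed when its adjusted p in limma, a linear model fitted over all genes, is under 0.05. Between P1 and P14 all 5 genes changed in cortex, 2 higher and 3 lower, where 64.4% of 11822 tested genes changed (24% higher, 40.3% lower). In hippocampus 3 of the 5 changed, 2 higher and 1 lower, against 49.5% of 11578 tested genes (21% higher, 28.5% lower). In olfactory bulb 4 of the 5 changed, 2 in each direction, against 56.1% of 11490 (24.8% higher, 31.4% lower). With shares this high, the number of the 5 genes that changed is close to what all genes showed, and the directions and sizes carry the description. The median gene was also lower at P14, by log2 differences of -0.27, -0.29 and -0.24 (cortex, hippocampus, olfactory bulb).

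**Figure D1:**
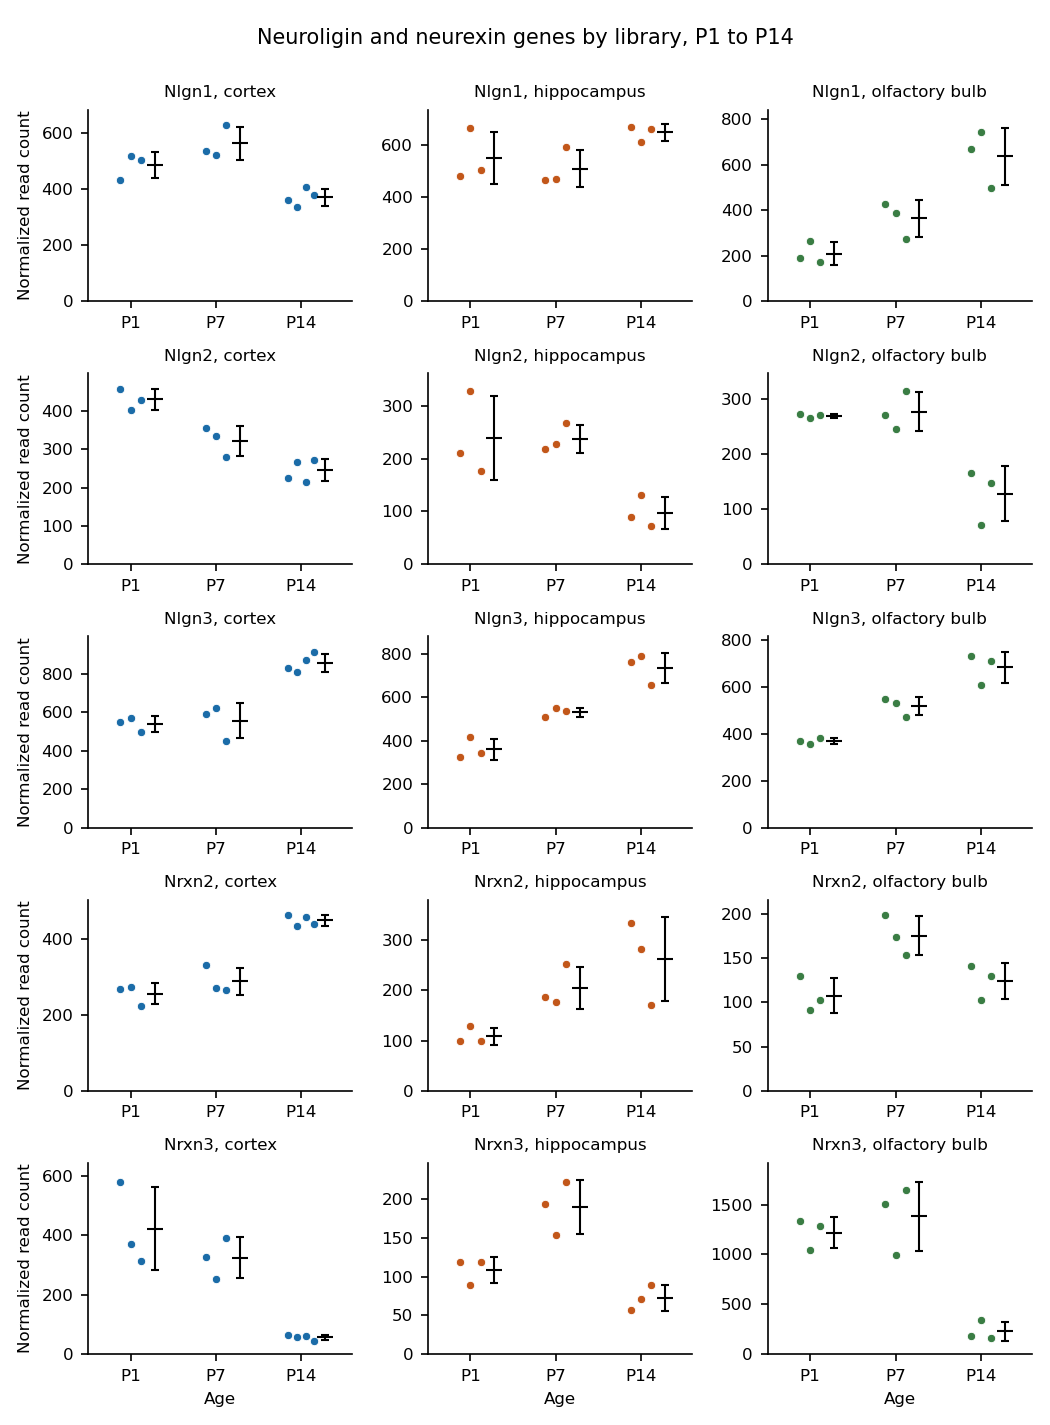
Normalized read count (vertical axes, from 0) of each gene at P1, P7 and P14 in cortex, hippocampus and olfactory bulb. Points are libraries, and the bar beside them is the mean with its SD. Nlgn3 sat higher at P14 than at P1 in every region, Nlgn2 sat lower, and Nrxn3 in cortex and olfactory bulb stayed high to P7 and was low at P14.

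Nlgn2, the neuroligin of inhibitory synapses, fell in every region but at different times. In cortex it was 458, 404 and 428 normalized read counts at P1, 355, 334 and 279 at P7, and 226, 267, 215 and 273 at P14. Every cortex library at P7 and P14 was below every library at P1. The difference between P7 and P1 was a log2 value of -0.42 ± 0.13 (SE; limma adjusted p = 0.023), and that between P14 and P1 was -0.81 ± 0.12 (adjusted p = 4.7e-05). In hippocampus the values were 211, 328 and 176 at P1, 218, 227 and 267 at P7, and 90.3, 131 and 71.7 at P14. Libraries of P1 and P7 overlapped, and all 3 P14 libraries lay below them. P14 stood below P7 by a log2 difference of -1.31 ± 0.27 (adjusted p = 0.0042) and below P1 by -1.27 ± 0.27 (adjusted p = 0.0024).

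The olfactory bulb had the same order as hippocampus for Nlgn2. Its values were 272, 265 and 270.2 at P1, 269.8, 245 and 314 at P7, and 165, 71.7 and 147 at P14. Libraries of P1 differed by less than those of any other group of this gene, with a mean of 269 ± 3.49 (SD, n = 3). The difference between P14 and P7 was -1.19 ± 0.27 on the log2 scale (limma adjusted p = 0.0044). Against P1 it was -1.15 ± 0.27 (adjusted p = 0.0040).

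In cortex, the earlier step of Nlgn2 was the less secure one. Nlgn2 was the 1 gene of the 5 that changed between P1 and P7 there, where 33.7% of tested genes changed (15.6% higher, 18.1% lower). Its call was lost with 2 other scalings: the log2 difference was -0.33 (limma adjusted p = 0.069) with TMM and -0.34 (adjusted p = 0.068) with median-ratio scaling. It was also lost without P1 replicate 1 (adjusted p = 0.075), P1 replicate 3 (0.053) or P7 replicate 3 (0.088). The step from P7 to P14 in cortex, -0.40 ± 0.12 (adjusted p = 0.015), fell to -0.21 (adjusted p = 0.18) with TMM and was lost without P7 replicate 1 (adjusted p = 0.074). The fall from P1 to P14 passed under every alternative tried in all 3 regions.

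Nlgn3, which works at both kinds of synapse, rose in every region. In cortex it was 551, 572 and 495 at P1, 589.7, 625 and 453 at P7, and 829.7, 812, 873 and 915 at P14. Libraries of P1 and P7 overlapped and every P14 library was above them. The log2 difference was 0.64 ± 0.11 between P14 and P7 (limma adjusted p = 0.00039) and 0.67 ± 0.11 between P14 and P1 (adjusted p = 0.00014). In cortex, then, Nlgn3 changed after P7.

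In hippocampus and olfactory bulb the rise of Nlgn3 was spread over both weeks. Hippocampus libraries held 324, 416 and 342 at P1, 509.6, 549.9 and 539 at P7, and 762, 791 and 657 at P14, with no overlap between ages. Olfactory bulb libraries held 369, 357 and 384, then 548, 532 and 475, then 733, 609 and 711, again without overlap. From P1 to P14 the log2 difference was 1.03 ± 0.14 in hippocampus (limma adjusted p = 9.2e-05) and 0.88 ± 0.13 in olfactory bulb (adjusted p = 0.00017). Both passed under every alternative tried. The single steps were smaller: 0.57 ± 0.14 and 0.46 ± 0.14 in hippocampus (adjusted p = 0.014 and 0.028), and 0.48 ± 0.13 and 0.40 ± 0.13 in olfactory bulb (adjusted p = 0.037 and 0.026). All 4 of these calls were lost when some single libraries were left out, with adjusted p between 0.052 and 0.15, and without a variance trend. With quantile normalization the step from P7 to P14 shrank to 0.15 in hippocampus (adjusted p = 0.45) and 0.19 in olfactory bulb (adjusted p = 0.27), and neither was called. Array weights also ended both of those calls (adjusted p = 0.14 in each), and TMM ended that of the first week in olfactory bulb (0.42, adjusted p = 0.064).

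Nlgn3 lies on the X chromosome, and libraries differed in Ddx3y, a gene of the Y chromosome. All 6 cortex libraries at P1 and P7 held Ddx3y at 0.577 or less, and at P14 it was 326 and 340.1 in replicates 3 and 4. Nlgn3 was 873 and 915 in those libraries and 829.7 and 812 in the other P14 libraries. With Ddx3y as a covariate, the cortex difference between P14 and P1 was 0.60 on the log2 scale (limma adjusted p = 0.0028). The same covariate ended the hippocampus call between P7 and P14 (0.45, adjusted p = 0.055).

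Nlgn1, the neuroligin of excitatory synapses, went in different directions by region. In cortex it was 431, 519 and 505 at P1, 537, 522 and 629 at P7, and 362, 335, 408 and 377 at P14. All P14 libraries were below all earlier ones, and those at P7 were above those at P1. In olfactory bulb it was 191, 266 and 172 at P1, 428, 390.3 and 274 at P7, and 668, 746 and 498 at P14. There each age lay above the one before it. In hippocampus it was 483, 668 and 505, then 468, 469.8 and 592, then 673, 613 and 665. Hippocampus P14 libraries overlapped those of P1 and lay above those of P7.

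In olfactory bulb Nlgn1 rose from P1 to P14 by 1.60 ± 0.23 on the log2 scale (limma adjusted p = 0.00014). About equal parts of this came before and after P7: the steps were 0.79 ± 0.23 (adjusted p = 0.0503, not called) and 0.81 ± 0.23 (adjusted p = 0.014). The second step was lost without P7 replicate 3 (0.62, adjusted p = 0.058), the lowest library of that age, and with array weights (0.73, adjusted p = 0.14). The first was called without P1 replicate 2 (0.98, adjusted p = 0.043) or P7 replicate 3 (0.98, adjusted p = 0.021). With all libraries it was called with edgeR (adjusted p = 0.036), DESeq2 (0.011), array weights (0.0031), quantile normalization (0.034) and the Ddx3y covariate (0.024). A minimum mean of 100 (0.029), a pseudocount of 8 (0.044) and only the 2 ages in the fit (0.015) gave the call too.

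In cortex Nlgn1 fell after P7 by a log2 difference of -0.60 ± 0.11 (limma adjusted p = 0.00046), a call that held under every alternative tried. Between P14 and P1 the cortex difference was -0.38 ± 0.11 (adjusted p = 0.0062). That one depended on the scaling: it was -0.11 (adjusted p = 0.41) with TMM and -0.13 (adjusted p = 0.28) with median-ratio scaling, which place the median gene near 0. In hippocampus none of the 3 differences was called, and that between P14 and P1 was 0.25 ± 0.16 (adjusted p = 0.21), with a 95% interval from -0.09 to 0.59. The difference between regions was not tested.

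Nrxn3, a neurexin, had the largest differences of the 5 genes in cortex and olfactory bulb. In cortex it was 581, 372 and 314 at P1, 327, 254 and 392 at P7, and 62.8, 58.5, 59.6 and 43.1 at P14. P1 and P7 overlapped, and the highest P14 library stood far below the lowest earlier one. The cortex difference was -2.50 ± 0.21 on the log2 scale between P14 and P7 (limma adjusted p = 9.4e-07) and -2.86 ± 0.21 between P14 and P1 (adjusted p = 7.3e-08). In olfactory bulb it was 1332, 1043 and 1281 at P1, 1509, 989 and 1649 at P7, and 185, 340.5 and 165 at P14. As in cortex, P1 and P7 overlapped and P14 was low, by -2.62 ± 0.27 against P7 (adjusted p = 2.8e-05) and -2.47 ± 0.27 against P1 (adjusted p = 2.0e-05). These 4 calls held under every alternative tried.

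In hippocampus Nrxn3 was highest at P7. Its values were 118, 89.1 and 119 at P1, 193, 153 and 222 at P7, and 57.0, 70.6 and 89.6 at P14. Libraries of P7 lay above all others, and 1 of the 3 P14 libraries lay within the P1 range. The fall from P7 to P14 was -1.38 ± 0.25 on the log2 scale (limma adjusted p = 0.0019), a call that held under every alternative tried. The rise from P1 to P7, 0.79 ± 0.25 (adjusted p = 0.049), was lost when any 1 of the 6 libraries of these ages was left out, with adjusted p between 0.065 and 0.20. P14 and P1 differed by -0.59 ± 0.25 (adjusted p = 0.071), which was called (-0.76, adjusted p = 0.027) without P14 replicate 3.

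Nrxn2, the other neurexin, ran against Nrxn3 in cortex. It was 269, 274 and 224 at P1, 330.0, 269.8 and 265 at P7, and 463, 435, 459 and 438 at P14. P14 stood above both earlier ages, by a log2 difference of 0.64 ± 0.11 against P7 (limma adjusted p = 0.00033) and 0.81 ± 0.11 against P1 (adjusted p = 2.1e-05). In hippocampus Nrxn2 was 98.6, 129 and 99.5 at P1, 187, 176 and 254 at P7, and 334, 283 and 170.2 at P14. Both later ages lay above P1 and overlapped each other. The difference was 0.90 ± 0.26 between P7 and P1 (adjusted p = 0.033) and 1.22 ± 0.26 between P14 and P1 (adjusted p = 0.0025). The P14 call held under every alternative tried, and the P7 call was lost without any 1 of P1 replicates 1 and 3 and P7 replicates 1, 2 and 3 (adjusted p between 0.060 and 0.15).

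Olfactory bulb Nrxn2 was 129, 90.7 and 103 at P1, 198, 174 and 154 at P7, and 141, 102 and 129 at P14. It was highest at P7, and P14 overlapped P1. None of the differences was called: 0.71 ± 0.21 between P7 and P1 (limma adjusted p = 0.058), -0.50 ± 0.21 between P14 and P7 (adjusted p = 0.074) and 0.21 ± 0.21 between P14 and P1 (adjusted p = 0.42). The first was called with edgeR (0.70, adjusted p = 0.047), DESeq2 (0.70, adjusted p = 0.0099), array weights (0.76, adjusted p = 0.0021), a minimum mean of 100 (adjusted p = 0.039) and only the 2 ages in the fit (adjusted p = 0.010). The second was called (-0.60, adjusted p = 0.044) without P14 replicate 1. From P1 to P7 in olfactory bulb, Nlgn3 was the 1 gene of the 5 that changed, against 10.6% of tested genes (7.59% higher, 2.98% lower).

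**Figure D2:**
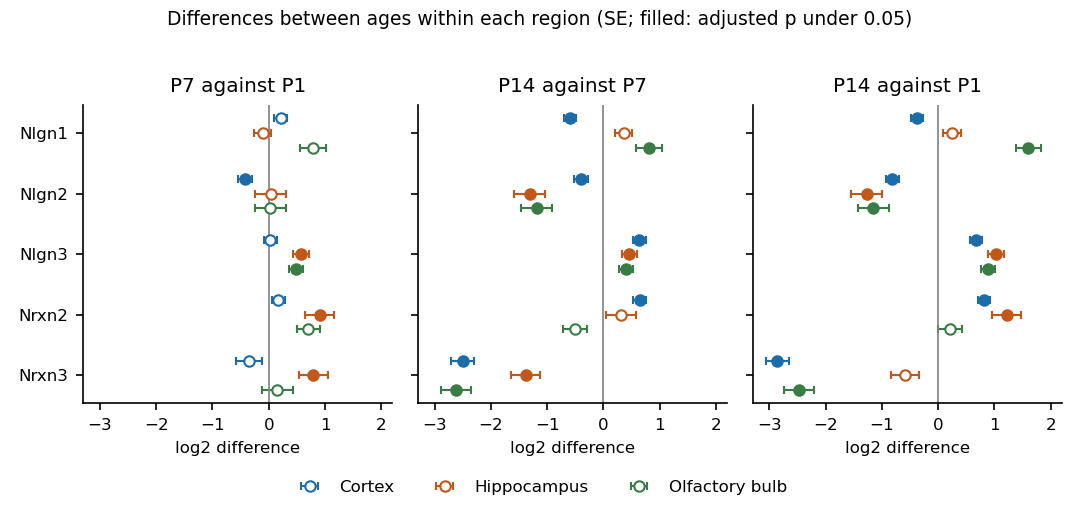
log2 difference with its SE (horizontal axes) of each gene between ages within cortex, hippocampus and olfactory bulb, with filled symbols where the limma adjusted p is under 0.05. Nlgn2 and Nlgn3 lie on opposite sides of 0 in every region for P14 against P1, and Nlgn1 runs from -0.38 in cortex to 1.60 in olfactory bulb.

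Calls were also counted for each week, and the difference between the weeks was not tested. From P1 to P7, 3 of the 5 genes changed in hippocampus (Nlgn3, Nrxn2 and Nrxn3, all higher), against 18.1% of tested genes (11.2% higher, 6.92% lower). From P7 to P14 all 5 changed in cortex (Nlgn3 and Nrxn2 higher), against 49.8% of tested genes (18.6% higher, 31.3% lower). Of the 5, 3 changed in hippocampus (Nlgn2 and Nrxn3 lower, Nlgn3 higher), against 30.1% (12.5% higher, 17.7% lower). In olfactory bulb 4 changed (Nlgn1 and Nlgn3 higher, Nlgn2 and Nrxn3 lower), against 47% (20.4% higher, 26.6% lower). Nlgn2, Nlgn3 and Nrxn3 were thus called in each region after P7. Under every alternative tried this held for Nrxn3 in all 3 regions, for Nlgn2 in hippocampus and olfactory bulb, and for Nlgn3 in cortex.

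Levels of different genes were compared as normalized read counts per kilobase of exon, using the union of annotated exons. At P1 in cortex the order was Nlgn2 (74.4 per kilobase), Nlgn3 (58.2), Nlgn1 (36.1), Nrxn3 (33.5) and Nrxn2 (18.5). Nlgn1 and Nrxn3 overlapped there, at 32.1 to 38.6 and 24.9 to 46.1, and the others did not. By P14 Nlgn3 led at 92.5, followed by Nlgn2 at 42.4, Nrxn2 at 32.5, Nlgn1 at 27.6 and Nrxn3 at 4.44, with no overlap between neighbours. Nlgn3 and Nlgn2 had changed places, and so had Nrxn2 and Nrxn3.

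The other regions ended with the same leader from different starts. At P1 in hippocampus the libraries of the 3 neuroligins overlapped, with means of 41.2 for Nlgn2, 41.1 for Nlgn1 and 38.9 per kilobase for Nlgn3, and both neurexins were lower, at 8.62 for Nrxn3 and 7.89 for Nrxn2. At P14 hippocampus Nlgn3 stood at 79.5, Nlgn1 at 48.4, Nrxn2 at 19.0, Nlgn2 at 16.9 and Nrxn3 at 5.74 per kilobase, where only Nrxn2 and Nlgn2 overlapped. In olfactory bulb Nrxn3 led at P1 with 96.7 per kilobase and at P7 with 109.7, a level above that of 92.2% and 94.5% of tested genes. At P1 these libraries had a higher sum of neuron markers than of astrocyte markers, and the part of neurons in this level was not tested. At P14 olfactory bulb Nrxn3 had dropped to 18.3, and Nlgn3 led at 73.8, followed by Nlgn1 at 47.5 and Nlgn2 at 22.1. Nrxn3 and Nlgn2 overlapped at that age, and Nrxn2 was lowest at 8.98.

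Ratios of 2 genes within a library do not depend on the scaling. The ratios here were picked after the values were seen and carry no test. The ratio of Nlgn3 to Nlgn2 per kilobase ranged from 0.722 to 0.884 in cortex libraries at P1, and from 1.90 to 2.53 at P14. In hippocampus it ran from 0.792 to 1.21 at P1 and from 3.76 to 5.73 at P14, and in olfactory bulb from 0.841 to 0.888 and from 2.77 to 5.30. Thus each P14 library held more Nlgn3 relative to Nlgn2 than any P1 library of its region. The ratio of Nrxn2 to Nrxn3 also separated the ages. It ran from 0.423 to 0.673 at P1 and from 6.72 to 9.28 at P14 in cortex, from 0.761 to 1.32 and from 1.73 to 5.36 in hippocampus, and from 0.0731 to 0.0884 and from 0.273 to 0.713 in olfactory bulb. The ratio of Nlgn1 to Nlgn2 separated them in hippocampus (0.878 to 1.23 against 2.01 to 4.0) and olfactory bulb (0.274 to 0.433 against 1.46 to 4.48). In cortex it overlapped slightly, at 0.405 to 0.553 against 0.542 to 0.817.

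For each gene, the genes most like it were those with the highest mean of 3 correlations (Pearson r of log2 values), 1 within each region, over the 10 cortex, 9 hippocampus and 9 olfactory bulb developmental libraries. Among 10838 genes tested in all 3 tables, Nxph1 came first for Nrxn3, with a mean r of 0.95. Nxph1 encodes neurexophilin-1, a secreted protein that binds alpha-neurexins. Its mean normalized read count was 65.9 at P1 and 10.6 at P14 in cortex, and 241 and 26.7 in olfactory bulb. Ptpro (0.94) and Cacna1b (0.92), which encodes a calcium channel of nerve terminals, came next.

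The other genes had neighbours outside the family. Those of Nlgn3 were Ntm, Nwd1 and Asrgl1, each with a mean r of 0.95; Ntm encodes neurotrimin, a cell adhesion molecule. For Nlgn2 they were Cdr2l (0.93), Pnck (0.92) and Pabpn1 (0.92). For Nrxn2 they were Lix1 (0.86), Lgr4 (0.86) and Ift57 (0.85), and for Nlgn1 they included Ids (0.81) and Ntn4 (0.81). All points of a correlation share ages and libraries, and a large share of genes changed with age, so these values are descriptions without a test.

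Genes that work with neuroligins and neurexins were taken from 4 lists. The first holds other ligands of neurexins, outside the neuroligins. Between P1 and P14, 7 of the 10 tested in cortex fell and 2 rose. In hippocampus 7 of 11 fell and 2 rose, and in olfactory bulb 8 of 11 fell and 2 rose. Over all tested genes 40.3%, 28.5% and 31.4% fell and 24%, 21% and 24.8% rose in these regions, and the counts of each list below stand against the same shares. The list's median log2 differences, in the same order of regions, were -2.82, -2.82 and -2.92, against -0.27, -0.29 and -0.24 over all genes. Leucine-rich repeat proteins of excitatory synapses were among those that fell: Lrrtm1 went from 107 ± 10.4 to 3.24 ± 2.67 in cortex (SD, n = 3 and 4), and Lrrtm4 from 151 ± 40.5 to 4.0 ± 3.52 in hippocampus (n = 3 each) and from 125 ± 18.8 to 10.2 ± 15.3 in olfactory bulb. So were Clstn2 in cortex (286 ± 57.8 to 18.8 ± 12.4), a calsyntenin, and Cbln2 in olfactory bulb (90.8 ± 11.0 to 4.14 ± 6.01), a cerebellin that links neurexins to glutamate delta receptors. Clstn3 was at 0 reads in every hippocampus library at P14 and 20.7 ± 1.09 at P1, so it was at least 5.22-fold lower, taking 3 reads per library as the floor. Lrrtm3 was at 0 there too, and at least 2.44-fold lower; its call was lost with quantile normalization (-0.81, limma adjusted p = 0.27). With these at their bounds the hippocampus median was -2.38.

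The ligand that rose in every region was Dag1, which encodes dystroglycan, a receptor of the basement membrane that also binds neurexins. Dag1 went from 996 ± 119 to 2242 ± 152 in cortex (SD, n = 3 and 4), from 836 ± 139 to 2768 ± 284 in hippocampus (n = 3 each) and from 472 ± 41.2 to 2505 ± 279 in olfactory bulb. Igsf21 rose with it in cortex by a log2 difference of 1.91 ± 0.18 (limma adjusted p = 8.0e-07), and Clstn1 rose by 0.47 in both hippocampus (adjusted p = 0.030) and olfactory bulb (adjusted p = 0.033). These 3 were named after their values were seen.

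The second list holds proteins of the cleft that bind or regulate the pair. In cortex and in hippocampus 5 of 11 tested rose and 3 fell, and in olfactory bulb 6 of 10 rose and 1 fell. The list's medians were 0.87, 0.89 and 3.02. Sparcl1 encodes hevin, a secreted astrocyte protein that bridges neurexins and neuroligins. It had the highest P14 level of the list, at 66547 ± 5408 (cortex), 47135 ± 1516 (hippocampus) and 22762 ± 1888 (olfactory bulb), and rose from P1 by log2 differences of 3.06 ± 0.20, 4.92 ± 0.16 and 5.57 ± 0.23 (limma adjusted p = 2.0e-08, 1.3e-09 and 3.6e-08). Mdga1, which encodes a protein that holds neuroligins away from neurexins, fell in every region, by -2.18 ± 0.27 in cortex (adjusted p = 9.1e-06), -6.54 ± 0.85 in hippocampus (adjusted p = 6.9e-05) and -4.13 ± 1.00 in olfactory bulb (adjusted p = 0.0046). Thbs4, a thrombospondin, rose in cortex (3.08 ± 4.90 to 91.8 ± 66.2) and hippocampus (2.59 ± 1.49 to 40.0 ± 29.1), with a wide spread at P14. Grid1, a glutamate delta receptor, rose in olfactory bulb from 2.14 ± 1.04 to 83.4 ± 42.3, as did Sparc, from 67.4 ± 21.2 to 1647 ± 279. Thbs1 fell in cortex by -2.72 ± 0.81 (adjusted p = 0.0093), a call lost with Ddx3y as a covariate (adjusted p = 0.12).

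The third list holds scaffolds inside the cell that dock on the tails. It was mixed: of 15 tested, cortex had 5 that rose and 6 that fell, hippocampus 6 and 4, and olfactory bulb 4 and 4, with medians of 0.18, -0.15 and -0.23. Magi3 rose in cortex from 292 ± 35.8 to 657 ± 25.5 (SD, n = 3 and 4), and Apba2, a Mint protein that binds neurexin tails, rose in olfactory bulb from 158 ± 8.27 to 419.6 ± 89.1. Mllt4, the symbol the files use for afadin, which binds neurexin tails, fell in every region, from 604 ± 17.8 to 152 ± 47.6 (cortex), 676 ± 70.1 to 187 ± 64.7 (hippocampus) and 745 ± 84.3 to 305 ± 41.1 (olfactory bulb). Lin7a fell in hippocampus by -2.46 ± 0.65 (limma adjusted p = 0.0080) and Dlg3 in olfactory bulb by -1.29 ± 0.27 (adjusted p = 0.0020). Dlg2 fell in cortex by -1.19 ± 0.37 (adjusted p = 0.012), which was lost with Ddx3y as a covariate (-0.88, adjusted p = 0.11).

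The fourth list holds other adhesion receptors of synapses. In cortex 20 of 29 tested fell and 7 rose, in hippocampus 16 of 29 fell and 4 rose, and in olfactory bulb 14 of 30 fell and 7 rose (over all genes 40.3%, 28.5% and 31.4% fell), with medians of -1.73, -1.48 and -0.63. The largest differences were all falls. In cortex Lrfn5 went from 135 ± 26.3 to 3.12 ± 2.94 (SD, n = 3 and 4), Ephb2 from 96.1 ± 1.92 to 2.94 ± 2.34 and Slitrk1 from 160.0 ± 20.8 to 6.69 ± 3.54. In hippocampus Epha4, an ephrin receptor, went from 3473 ± 446 to 84.5 ± 13.3 (n = 3 each), Flrt3 from 223 ± 20.8 to 6.47 ± 4.90 and Efnb2 from 357 ± 53.6 to 11.9 ± 9.33. In olfactory bulb Slitrk4 went from 125 ± 10.4 to 3.44 ± 3.05, Slitrk3 from 121 ± 11.7 to 5.21 ± 2.16 and Ephb2 from 47.6 ± 11.3 to 2.65 ± 4.59. Each of these falls passed under every alternative in which the gene was tested.

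**Figure D3:**
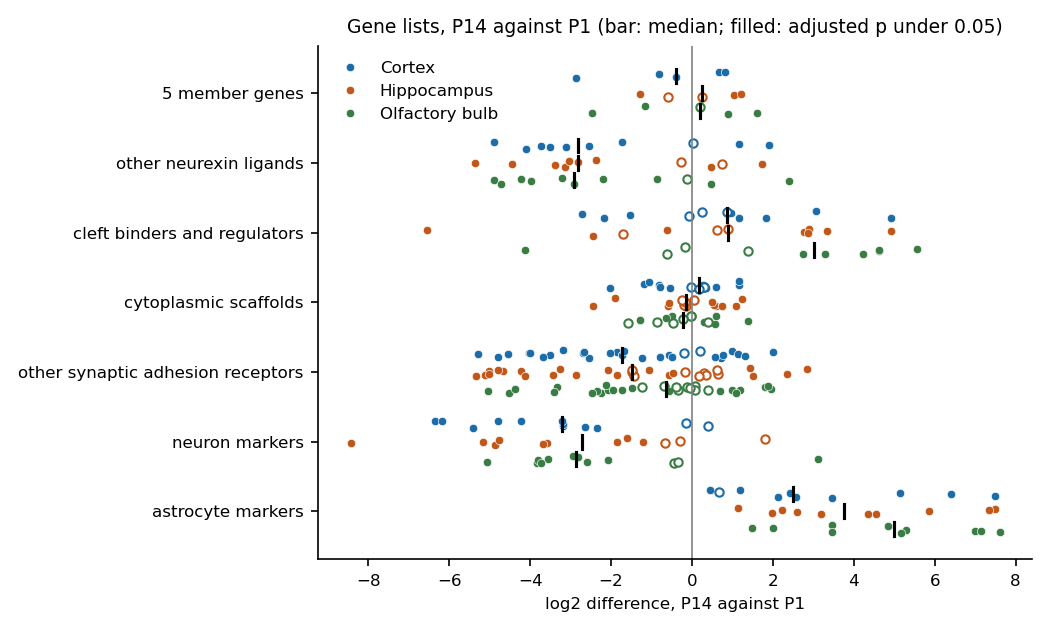
log2 difference between P14 and P1 (horizontal axis) for single genes of the 5 described here, the 4 partner lists and 2 cell type marker lists, by region, with the median as a bar and filled symbols where the limma adjusted p is under 0.05. Other neurexin ligands lie mostly below 0, like the neuron markers, and astrocyte markers lie above 0.

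Markers of neurons moved with age in the same libraries. The summed level of 12 neuron markers ranged from 7620 to 10798 at P1, 1825 to 4605 at P7 and 290 to 551 at P14 in cortex libraries, with no marker at 0 throughout a group. In hippocampus it ranged from 6490 to 8472, then 1710 to 2733, then 450 to 644, and in olfactory bulb from 15194 to 18587, then 9678 to 15046, then 2019 to 3188. Between P1 and P14, 10 of the 12 fell in cortex, 9 fell in hippocampus, and 9 fell in olfactory bulb, where Slc17a7 rose. Between P1 and P7, 5 of the 12 fell in cortex. In hippocampus 3 fell and 1 rose, with a median log2 difference of -0.07, so a few abundant markers carried the fall of the sum there. In olfactory bulb 3 rose and none fell. The sum of the 10 astrocyte markers rose, with medians over the 3 ages of 27496, 106891 and 510420 (cortex), 13913, 81643 and 454291 (hippocampus) and 6126, 15209 and 134085 (olfactory bulb). Of 6 markers of oligodendrocyte precursors, 2 rose and 2 fell in cortex, 2 rose and 1 fell in hippocampus, and 4 rose in olfactory bulb. All but 1 of the tested markers of mature oligodendrocytes rose: 7 of 8 (cortex), 4 of 4 (hippocampus) and 5 of 5 (olfactory bulb), with medians of 4.27, 4.82 and 4.60. Microglia markers rose for 8 of 8 tested, 4 of 5 and 3 of 4. Of 7 tested markers of endothelial and mural cells, 1 rose in cortex, 2 fell in hippocampus and 7 rose in olfactory bulb. The summed level of 4 choroid plexus and ependyma markers in hippocampus ranged from 41.4 to 76.2 at P1 and from 3884 to 7769 at P14, with Ccdc153 at 0 at P14. The part of other cell types in the differences of the 5 genes was not tested. In bulk libraries, fewer cells of a type and less RNA per cell cannot be told apart.

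At P28, none of the 5 genes passed the test between Gabbr1 cKO and control in any region. The background was as low: cortex had 1 changed gene, Gabbr1, or 0.00982% of 10188 tested, and the share was 0% of 11639 genes for hippocampus and 0% of 11539 for olfactory bulb. By limma with no adjustment, 221, 296 and 349 genes (2.17%, 2.54% and 3.02%) had a p under 0.05, and none of the 5 was among them. On the recovered reads, edgeR called 1, 0 and 0 genes in cortex, hippocampus and olfactory bulb and DESeq2 called 1, 1 and 22, none of them among the 5. Control and cKO libraries overlapped for each of the 5 in each region, while 1.89%, 15% and 10% of tested genes had groups that did not overlap.

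**Figure D4:**
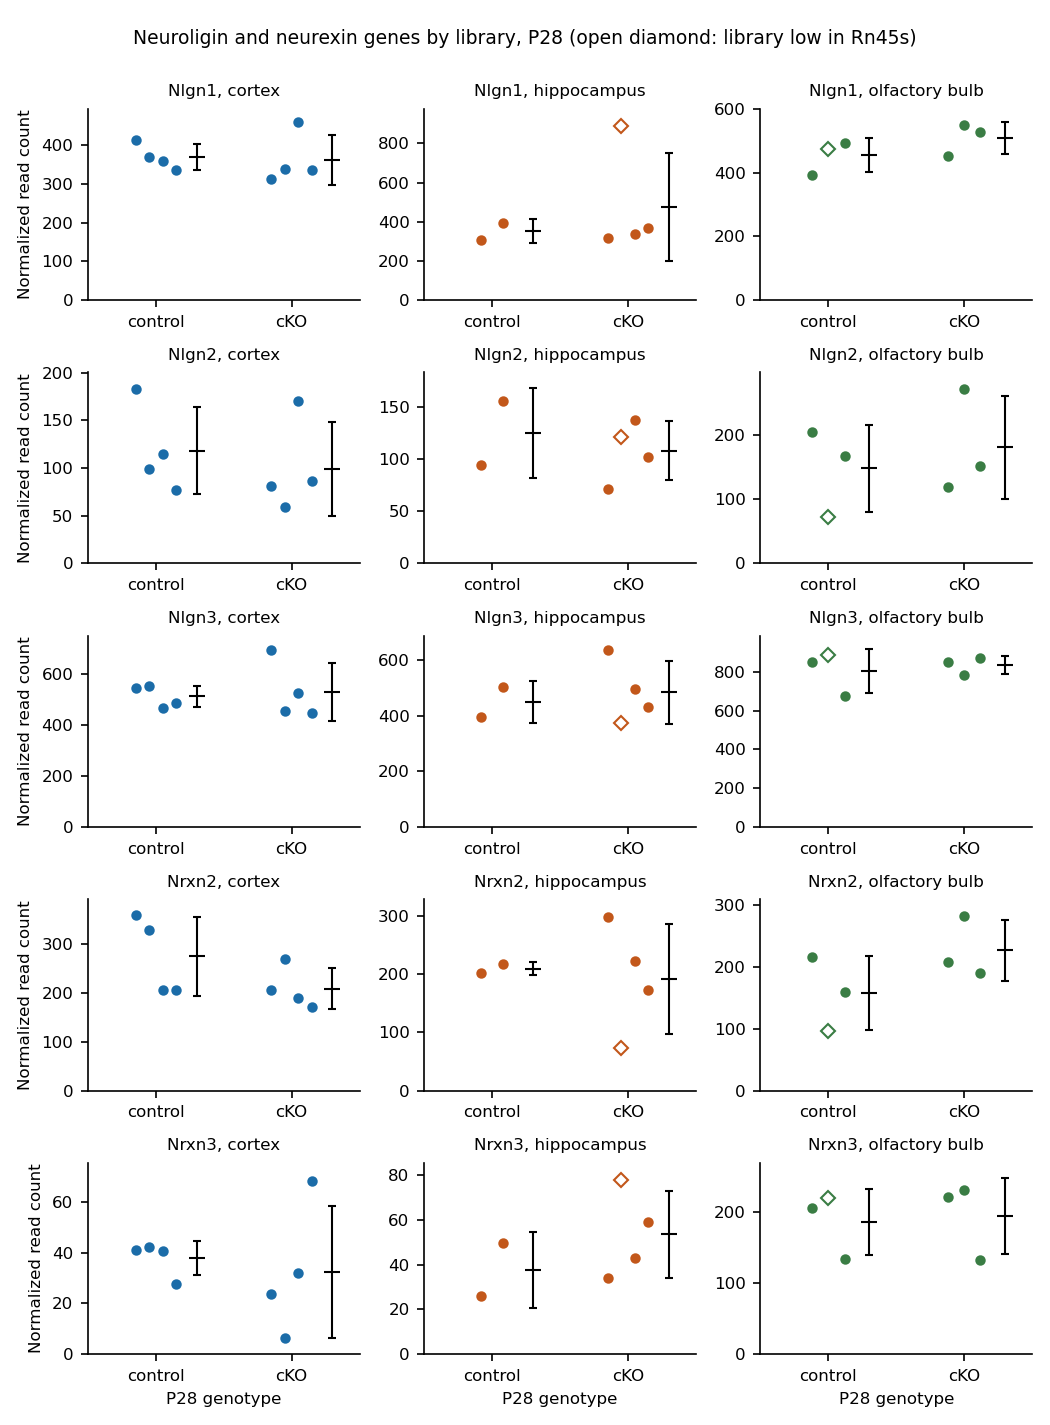
Normalized read count (vertical axes, from 0) of each gene in P28 control and cKO libraries of cortex, hippocampus and olfactory bulb. Points are libraries, open diamonds are the 2 libraries low in Rn45s, and bars are the mean with its SD. Control and cKO points overlap in every panel, and the highest Nlgn1 value in hippocampus, 888, is a library low in Rn45s.

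In cortex at P28, Nlgn1 was 415, 369, 359.5 and 335 in controls and 314, 339.9, 459.5 and 336 in cKO libraries. Nlgn2 was 183, 99.2, 115 and 76.7 in controls against 80.8, 58.7, 170.2 and 86.4. Nlgn3 was 544, 552, 469 and 488 against 696, 456, 525 and 449. The Nlgn1 and Nlgn3 differences were within a narrow range, at -0.04 (95% interval -0.45 to 0.37) and 0.03 (-0.38 to 0.44) on the log2 scale. That of Nlgn2 was -0.30, with an interval from -1.04 to 0.44. Nrxn2 was 360.3, 328, 206 and 205 in controls and 206, 269, 189 and 171 in cKO libraries, a difference of -0.37 (-0.89 to 0.16). Nrxn3 was 41.2, 42.0, 40.6 and 27.7 in controls and 23.6, 6.29, 32.0 and 68.1 in cKO libraries, a difference of -0.60 (-1.81 to 0.61). The lowest cKO library of Nrxn3, replicate 2, rested on 6 reads, and without it the difference was -0.0038. With edgeR and DESeq2 it was -0.21.

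The cortex P28 libraries came in 2 label formats, one without a treatment entry (controls 1 and 2, cKO 1 to 3) and one naming tamoxifen (controls 3 and 4, cKO 4). The highest Nrxn2 controls, at 360.3 and 328, had the first format. Within the first format the log2 differences were -0.10 for Nlgn1, -0.53 for Nlgn2, 0.01 for Nlgn3, -0.65 for Nrxn2 and -1.24 for Nrxn3. Within the second, with 1 cKO library, they were -0.05, -0.12, -0.09, -0.27 and 1.00. Nrxn3 thus had opposite signs in the 2 sets, and Nlgn3 also changed sign. Gabbr1 differed by -4.11 within the first format and -2.29 within the second. Astrocyte marker sums were 234052 to 302841 in the first and 146613 to 206505 in the second. Those of mature oligodendrocytes were 2752 to 6737 and 9348 to 15552, and neuron marker sums overlapped. The part of these in the differences was not tested.

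In hippocampus at P28, Nlgn1 was 307 and 393 in controls and 315, 888, 335 and 368 in cKO libraries. Nlgn2 was 94.6 and 156 against 71.7, 121, 137 and 102, and Nlgn3 was 397 and 502 against 635, 374, 495 and 429.7. The value of 888 came from cKO replicate 2, the library low in Rn45s. Nrxn2 was 201 and 217 against 298, 72.2, 222 and 172, with the lowest value in that same library. Nrxn3 was 25.8 and 49.8 against 33.9, 78.0, 43.1 and 59.3. The differences were 0.31 (95% interval -0.65 to 1.27) for Nlgn1, -0.21 (-1.12 to 0.70) for Nlgn2, 0.09 (-0.58 to 0.76) for Nlgn3, -0.30 (-1.45 to 0.85) for Nrxn2 and 0.50 (-0.72 to 1.71) for Nrxn3. Without cKO replicate 2, Nlgn1 was -0.04 and Nrxn2 0.11, so both changed sign.

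In olfactory bulb at P28, Nlgn1 was 395, 477 and 496 in controls and 453, 549 and 527 in cKO libraries, and Nlgn2 was 204, 73.2 and 167 against 119, 272 and 152. Nlgn3 was 853, 889 and 677 against 853, 781 and 872. These 3 differed by 0.16 (95% interval -0.33 to 0.66), 0.32 (-0.64 to 1.29) and 0.06 (-0.41 to 0.53) on the log2 scale. Nrxn2 was 216, 97.0 and 159.9 against 208, 283 and 189.8, a difference of 0.58 (-0.18 to 1.33). Nrxn3 was 207, 219.6 and 133 against 221, 231 and 133, a difference of 0.05 (-0.66 to 0.77). Control replicate 2, low in Rn45s, held the lowest Nlgn2 and Nrxn2 values. Without it the Nlgn2 difference was -0.12 and that of Nrxn2 0.27.

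The 95% intervals lay within a 2-fold change in both directions for Nlgn1, Nlgn3 and Nrxn2 in cortex, Nlgn3 in hippocampus, and Nlgn1, Nlgn3 and Nrxn3 in olfactory bulb. For the other 8 differences they reached beyond it in at least 1 direction. In simulated data all genes shared 1 spread, a coefficient of variation beyond counting noise of 42.5%, 48.2% and 45.5% (cortex, hippocampus, olfactory bulb). Among randomly chosen genes above a minimum level, 2-fold changes were called for 7%, 0% and 3%, and 4-fold changes for 71%, 12% and 40%. The 5 genes had spreads of their own, such as 8.0% for Nlgn3 in cortex controls and 80.2% for Nrxn3 in cortex cKO libraries. Both percentages are SD over mean and include counting noise, so they differ in measure from the simulated spread. Those cKO libraries held 6 to 71 reads of Nrxn3. The simulated rates are thus not those of the 5 genes. No tested gene of the 4 partner lists changed at P28, among 5, 8 and 9 other neurexin ligands in cortex, hippocampus and olfactory bulb, 9, 11 and 10 cleft proteins, 15 scaffolds in each, and 22, 23 and 26 other adhesion receptors. The summed level of the 12 neuron markers ran from 270 to 623 in cortex controls and 185 to 555 in cKO libraries, from 296 to 484 and 320.2 to 1140 in hippocampus, and from 1436 to 4325 and 1026 to 2104 in olfactory bulb, and its part in the differences was not tested.

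At P28, as at P14, Nlgn3 had the highest mean level. It led in controls of each region, with 55.4 (cortex), 48.4 (hippocampus) and 87.0 per kilobase (olfactory bulb), followed by Nlgn1 at 27.5, 26.1 and 34.0. In cortex this differs from P14, when Nlgn2 came second. In cKO groups Nlgn3 had the highest mean too, at 57.3, 52.2 and 90.1. In hippocampus cKO its libraries (40.4 to 68.5) overlapped those of Nlgn1 (23.4 to 66.2). There Nlgn1 was above Nlgn3 in replicate 2, the library low in Rn45s, with a ratio of Nlgn3 to Nlgn1 of 0.61. In cortex controls Nlgn2 and Nrxn2 followed at 20.5 and 19.9, overlapping each other and Nlgn1. Nlgn1 also overlapped Nlgn2 in hippocampus controls, at 22.8 to 29.3 and 16.4 to 26.9. The same held in olfactory bulb controls, at 29.4 to 36.9 and 12.7 to 35.3. Nrxn3 was lowest in cortex and hippocampus controls at 3.0 in each, below the other 4 genes in every library. In olfactory bulb controls Nrxn3 (14.8) and Nrxn2 (11.4) overlapped. The ratio of Nlgn3 to Nlgn2 was above 1 in every P28 library, from 1.86 to 7.57 in controls and from 1.79 to 5.53 in cKO libraries. The value of 7.57 came from the olfactory bulb control low in Rn45s, and the next highest control was at 3.97.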

How the data were processed

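RNA-seq of mouse astrocytes was compared between 3 ages in 3 regions (28 libraries) and between Gabbr1 control and cKO at P28 (20 libraries). The Trio RNA-seq kit was used on small amounts of total RNA, per the labels' protocols. The submitters' processing notes name FastQC, MultiQC, STAR 2.5.0a, DESeq2 1.20.0 and mm10; the counting program, annotation and strand setting are not given in the sources used here. The deposited values are a signal: the authors' read counts divided by 1 size factor per library, as the values themselves show. Dividing by the value of 1 read gave whole reads (within 0.01) for 100% of values, although in olfactory bulb P28 cKO replicate 2 that value is close to 1 and the check is weak.

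Within each of the 6 tables, limma 3.58.1 (R 4.3.3, trended variance) was fitted to log2(value + 1) over all genes with a mean of at least 10, with all groups of the table sharing 1 spread. Fold changes are on that scale, which understates low genes. P-values were adjusted by Benjamini-Hochberg over all genes tested, with a threshold of 0.05, two-sided. edgeR 4.0.16 and DESeq2 1.42.0 on the recovered reads, other scalings, filters, pseudocounts, weights, a Ddx3y covariate and leaving out each library were alternatives. The fit was tested on simulated data. Exon lengths and sequences came from GENCODE M21. Each of 5 tables held 27 symbols turned into dates, which stayed unnamed. Partner lists are named by the 3 tested members with the largest differences per list and region; some items that these rules name are not reported here. The members and lists were chosen with earlier results of these data known, and the ratios between genes were added after the values were seen.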

Additional observations from a re-analysis of the deposited data

Results flagged for a closer look

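Of 20 groups of 4 libraries tested gene by gene, 2 held a library far from the others, and chance gives about 1 in 20. In hippocampus P28 cKO libraries, replicate 2 held 888 normalized read counts of Nlgn1, against 315 to 368 in the other 3; this is a library low in Rn45s. In cortex P28 controls, replicate 4 held 27.7 of Nrxn3, against 40.6 to 42.0 in the other 3.

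In 4 comparisons of regions, the libraries of the 2 ages did not overlap in either region, and the 2 regions had opposite directions. How many of all tested genes had this pattern was not counted. Nlgn1 between P7 and P14 had log2 differences of -0.60 (cortex), 0.36 (hippocampus, not called) and 0.81 (olfactory bulb). Between P1 and P14 it had -0.38 in cortex and 1.60 in olfactory bulb. With TMM scaling that cortex difference was -0.11 (limma adjusted p = 0.41). Nrxn2 between P7 and P14 had 0.64 in cortex and -0.50 in olfactory bulb, where it was not called. These differences between regions were not tested, since regions were scaled in separate tables.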

How the results depend on the processing

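Over 60 differences of the 5 genes and 1153 alternatives, 1047 kept direction and side of the threshold, 56 lost the call, 17 gained one and 33 changed sign. Of the 29 called differences none changed sign, and 19 stayed called under every alternative run. The number of the 5 genes called between P1 and P7 moved most. In cortex it went from 1 to 0 with TMM, median-ratio scaling or no variance trend, and ran from 0 to 1 when libraries were left out. In hippocampus it went from 3 to 0 without the trend and ran from 0 to 2. In olfactory bulb it went from 1 to 0 with TMM or no trend, to 2 with a pseudocount of 8, quantile normalization or the Ddx3y covariate, and to 3 with a minimum mean of 100, edgeR, DESeq2, array weights or only the 2 ages, and ran from 0 to 2. Between P7 and P14 in olfactory bulb it went from 4 to 2 with array weights and ran from 2 to 4.

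The sign changes were all in differences that were not called. At P28 in cortex Nlgn1 was 0.029 with array weights and -0.16 to 0.022 with single libraries left out, and Nlgn3 was -0.029 with label format as a covariate and -0.11 to 0.10. In hippocampus at P28 the Ddx3y covariate gave -0.068 for Nlgn1 and 0.13 for Nrxn2, and leaving out libraries gave -0.037 to 0.49 for Nlgn1, -0.56 to 0.15 for Nlgn2, -0.081 to 0.26 for Nlgn3 and -0.57 to 0.11 for Nrxn2. In olfactory bulb at P28 Nlgn2 was -0.013 with array weights and -0.12 to 0.62 without single libraries, Nlgn3 was -0.061 to 0.13, and Nrxn3 was -0.062 with Ddx3y and -0.17 to 0.31. Between P1 and P7, leaving out libraries gave -0.060 to 0.17 for Nlgn3 in cortex, -0.22 to 0.037 for Nlgn1 and -0.15 to 0.29 for Nlgn2 in hippocampus, and -0.065 to 0.11 for Nlgn2 in olfactory bulb. Hippocampus Nlgn2 was -0.00905 with edgeR and -0.00889 with DESeq2, and olfactory bulb Nlgn2 was -0.032 with TMM and -0.00834 with array weights. The cause of these shifts was not tested. The labels do not say which libraries came from the same animal, and no paired analysis was made. In the P28 labels, library codes run in sequence across regions within a genotype. The cKO libraries in which Ddx3y was 0 (cortex replicate 2, hippocampus replicate 2 and olfactory bulb replicate 1) form such a run. Regions at P28 may thus share animals and not be independent, which was not tested.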
